A study of Homo sapiens with 4 samples.

Results

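The genes of sterol synthesis, sterol uptake and SREBP control were followed in A673 cells exposed to CBL0137. They were chosen by symbol, and all 31 of the 31 were found among the 60617 genes of the deposited table. They fall into 8 genes of the mevalonate steps, 3 of the squalene steps, 10 that act after lanosterol, 2 of sterol uptake and transfer, and 8 that control SREBP. A673 is an established human Ewing sarcoma line that carries an EWSR1-FLI1 fusion and lacks functional p53. The cells received DMSO, the solvent, or CBL0137 at 1 µM, each for 24 h in medium with fetal bovine serum, and each condition had 2 RNA-seq libraries. CBL0137 is a curaxin, a small molecule that binds DNA and traps the histone chaperone FACT on chromatin. Both conditions come from 1 cell line, and the labels do not say whether replicates were separate cultures, so the p-values cover only how far these libraries spread, and that spread may be technical.

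Cells build cholesterol from acetyl-CoA, first through mevalonate to farnesyl pyrophosphate, then through squalene to lanosterol, and last through a series of demethylations, reductions and an isomerisation. When sterol in the endoplasmic reticulum is scarce, the escort protein SCAP carries the precursor of the transcription factor SREBP to the Golgi, where proteases release its active part, which then activates the genes of the pathway. When sterol is plentiful, INSIG proteins hold SCAP back, and oxysterols activate LXR receptors, whose targets export sterol.

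After 24 h of CBL0137, 8 of the 21 enzymes of sterol synthesis and 1 of the 8 genes that control SREBP fell. At edgeR's adjusted p under 0.05 without a fold limit, 17 of these enzymes and 5 of these control genes were lower. HMGCS1, which makes HMG-CoA, measured 145 and 147 CPM in the DMSO libraries and 75.5 and 74.3 CPM in the CBL0137 libraries. CPM are counts scaled to the library's total, corrected for library composition by TMM. Of the 31 genes, 9 fell, 0 rose and 22 were not called, where a call needs a Benjamini-Hochberg adjusted p under 0.05 in edgeR's quasi-likelihood test and a fold change above 1.5. The same limits called 2.73% of the 17309 genes tested lower, 6.88% higher and 9.61% in either direction. The genes that fell were ACAT2, HMGCS1, MVK, IDI1 and FDPS of the mevalonate steps, MSMO1, HSD17B7 and ERG28 of the steps after lanosterol, and the SREBP brake INSIG1. All 31 genes passed the count filter.

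Without the fold limit, 23 of the 31 genes were lower and 1, TM7SF2, was higher at an adjusted p under 0.05, against 19% and 17.5% of all genes tested. The counts at an unadjusted p under 0.05 were also 23 and 1, and DESeq2 and limma-voom each called 9 lower and 0 higher at the full limits. By adjusted p alone, limma-trend on the deposited FPKM, values scaled by gene length and library depth, gave 15 lower and 1 higher. FDPS, INSIG2, LBR, MBTPS1, NSDHL, SC5D, SREBF1 and STARD4 were lost there. In edgeR, scaling by library size alone gave 21 lower and 2 higher, and upper-quartile factors gave 22 and 2. By adjusted p alone, DESeq2 gave 20 lower and 0 higher, without CYP51A1, EBP, NSDHL and TM7SF2. The same 4 genes were lost without DMSO replicate 1, and NSDHL and TM7SF2 without CBL0137 replicate 2 (22 lower and 0 higher). Both CBL0137 libraries lay below both DMSO libraries for 23 genes and above them for 1, while all genes tested did so in 33.4% and 33.5% of cases. The median log2 fold change of the 31 genes was -0.43, with a range of -0.96 to 0.24, and that of all genes tested was 0.003. The 2 replicates of a condition differed by a median of 3.88% of their mean over the members. In bulk RNA, fewer cells of a kind and less RNA per cell cannot be told apart.

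**Figure D1:**
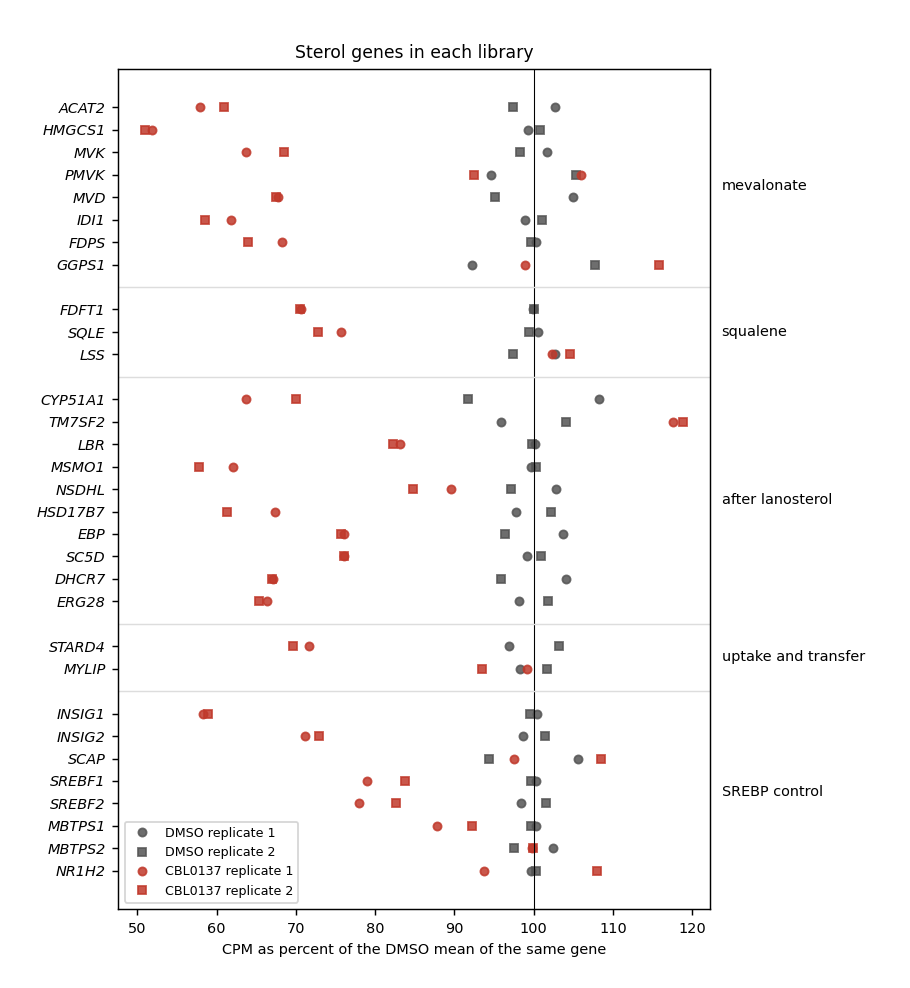
Level of each sterol gene in the 4 libraries, as CPM in percent of that gene's mean in DMSO (x axis, starting near 50), with grey points for DMSO and red points for CBL0137, grouped by step. The red points lie left of both grey points for 23 genes, right of them for TM7SF2, and among them for 7 genes.

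The promoters of the sterol genes, called or not, were read for short motifs. SREBP acts at sterol regulatory elements beside the factors NF-Y, which binds CCAAT, and Sp1, which binds GGGCGG. RefSeq windows of 250 bases before to 50 bases after a start site (GRCh38.p14) matched 28 of the 31 genes with 36 windows, and 3 genes (ACAT2, FDFT1 and SQLE) had no entry. The 6 stretches printed here, with GRCh38.p14 positions, end before the start site, 5′ to 3′ on the strand of the gene, from 10 bases outside the outermost matches of CCAAT and of the sterol motifs. Capitals mark those matches on either strand, so that ATTGG is CCAAT read backwards. HMGCS1, MSMO1 and ERG28 stand for enzymes that fell, INSIG1 and SREBF2 for windows with a sterol motif, and LSS for an enzyme that was not called. HMGCS1 has 2 windows, and its stretch comes from the only one that holds CCAAT. The stretches are picked examples: LSS held 1 CCAAT match, but the uncalled NSDHL held 5.
HMGCS1 (chr5:43313498-43313577, minus strand): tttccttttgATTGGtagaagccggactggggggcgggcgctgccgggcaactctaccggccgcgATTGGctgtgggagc
MSMO1 (chr4:165327474-165327649, plus strand): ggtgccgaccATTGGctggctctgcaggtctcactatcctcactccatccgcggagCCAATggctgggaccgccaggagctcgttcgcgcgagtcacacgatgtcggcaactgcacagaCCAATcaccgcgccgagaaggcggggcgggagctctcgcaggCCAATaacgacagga
ERG28 (chr14:75660896-75661004, minus strand): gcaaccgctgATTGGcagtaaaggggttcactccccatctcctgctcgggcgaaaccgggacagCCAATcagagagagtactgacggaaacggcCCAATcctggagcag
INSIG1 (chr7:155297660-155297840, plus strand): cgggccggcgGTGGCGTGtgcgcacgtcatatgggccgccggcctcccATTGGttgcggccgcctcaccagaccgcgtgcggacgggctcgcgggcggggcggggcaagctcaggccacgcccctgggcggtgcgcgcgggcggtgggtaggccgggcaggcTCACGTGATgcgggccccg
SREBF2 (chr22:41832962-41833013, plus strand): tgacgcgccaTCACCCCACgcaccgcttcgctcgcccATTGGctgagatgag
LSS (chr21:46228910-46228934, minus strand): cggcgctctgATTGGttgcgtgggc

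CCAAT was present in the windows of 19 of 28 genes (67.9%), against 34.61% of all 35116 promoter windows and 39.72% of all 27305 genes with one. All 8 called genes with a window held it, as did 11 of the 20 others. Split by an edgeR adjusted p under 0.05 without the fold limit, 15 of 20 lower genes and 4 of 8 others held it. The lower genes without it were CYP51A1, LBR, INSIG2, SREBF1 and MBTPS1. By role, it was found in 15 of 18 synthesis enzymes, in both uptake genes and in 2 of 8 SREBP control genes, namely INSIG1 and SREBF2. The number of matches overlapped between called and uncalled genes, and the difference was not tested. Among called genes, MVK and IDI1 (over 3 windows) held 5 each, MSMO1 4, and FDPS and ERG28 3 each. HMGCS1 and HSD17B7 held 2 each, and INSIG1 held 1. Among uncalled genes, NSDHL held 5, MVD and EBP 3 each, and DHCR7, STARD4 and MYLIP 2 each. GGPS1, LSS, TM7SF2, SC5D and SREBF2 held 1 each, and the other uncalled genes held 0. GGGCGG was in 24 of 28 genes (85.7%) against 44.95% of all windows and 48.3% of all genes with a window.

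The sterol motifs were rarer. The form TCACNCCAC, the full sterol element with 1 free base, matched only SREBF2 among the 28 genes, against 1.13% of all windows and 1.39% of all genes. Its shorter core CACNCCAC, which lies within the full form, matched IDI1, SC5D, INSIG1 and SREBF2 (14.3% of the 28), against 5.87% of all windows and 7.05% of all genes. The E-box-like form ATCACGTGA matched only INSIG1, as TCACGTGAT from -56 to -48 relative to the start site, against 0.27% of all windows and 0.31% of all genes. A match is a description of these letters, and both strands were searched. The INSIG1 and SREBF2 stretches also lie within the annotated spans of the noncoding genes INSIG1-DT and SREBF2-AS1.

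**Figure D2:**
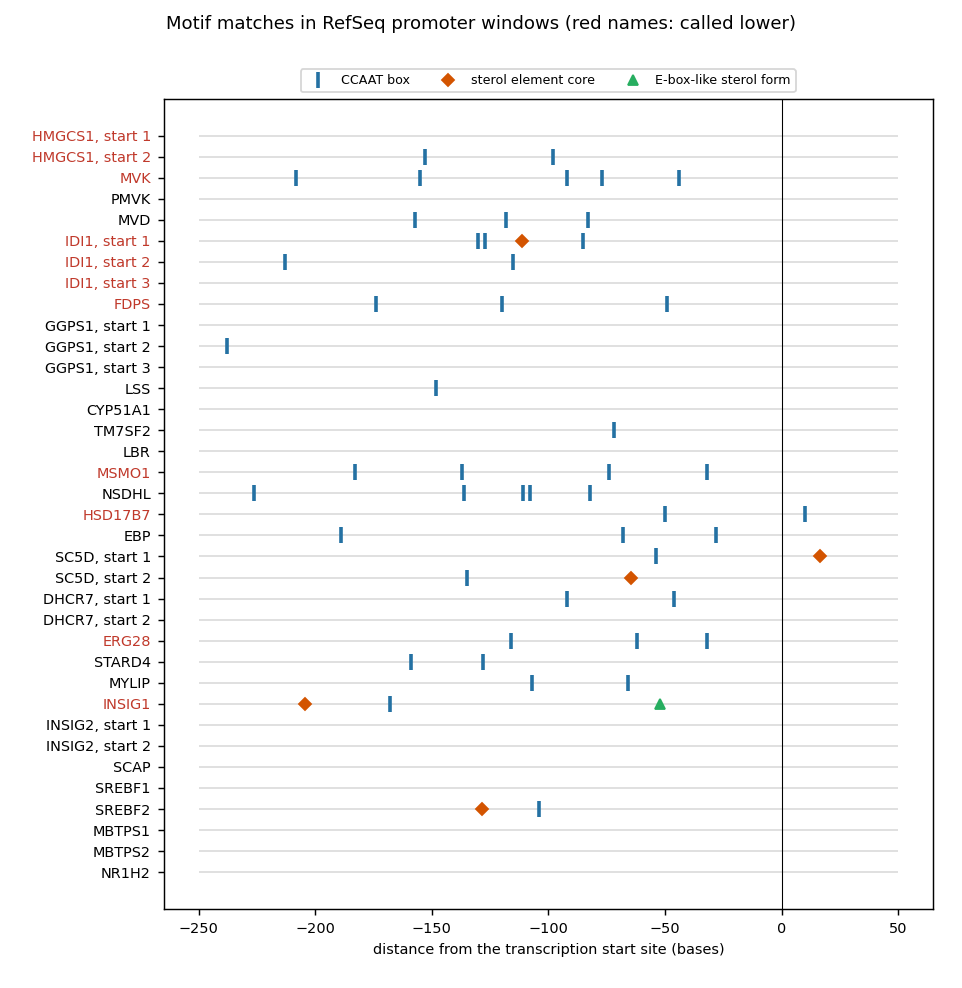
Position of motif matches in 36 RefSeq promoter windows of 28 sterol genes, as distance from the start site in bases (x axis), with blue bars for CCAAT, orange diamonds for the sterol element core and a green triangle for the E-box-like form. Red names mark the 8 called genes. Each of them has a CCAAT match in a window, as have 11 of the 20 others, while 6 of the 8 SREBP control genes have none.

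Among the mevalonate genes, HMGCS1 had the largest change of the 31 genes. HMGCS1 (ENSG00000112972, chromosome 5, 43287572 to 43313614 in GRCh37) fell by 48.6% in the means of its CPM, or by log2 fold change -0.96 ± 0.05 (± SE; edgeR adjusted p 2.9e-14). ACAT2, the cytosolic thiolase that joins acetyl-CoA units (ENSG00000120437, chromosome 6, 160183077 to 160200144), measured 66.04, 62.6, 37.3 and 39.2 CPM, where the values stand in the order DMSO replicate 1, DMSO replicate 2, CBL0137 replicate 1, CBL0137 replicate 2, here and for all genes below. Its log2 fold change was -0.75 ± 0.06, with an edgeR adjusted p of 3.5e-10. IDI1, the isomerase of isopentenyl pyrophosphate, measured 106, 109, 66.4 and 62.8 CPM, a log2 fold change of -0.73 ± 0.05 with an edgeR adjusted p of 1.6e-11. In these 3 genes the CBL0137 libraries lay close together and far below both DMSO libraries.

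Smaller falls were seen at the kinase MVK and the synthase FDPS. MVK, which phosphorylates mevalonate, measured 52.9, 51.2, 33.1 and 35.6 CPM (-0.60 ± 0.06, edgeR adjusted p 5.4e-08). FDPS, which makes farnesyl pyrophosphate, measured 91.5, 91, 62.3 and 58.4 CPM (-0.60 ± 0.05, 1.5e-09). MVD, the decarboxylase between them, measured 88.9, 80.6, 57.5 and 57.2 CPM, and at -0.56 ± 0.06 with an edgeR adjusted p of 1.3e-08 it lay inside the fold limit and was not called. Both CBL0137 libraries were below both DMSO libraries in these 3 genes as well. The fold limit corresponds to a log2 value of 0.585, so MVK and FDPS lay just past it and MVD just short of it.

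The remaining mevalonate genes did not separate the conditions. PMVK, the kinase that follows MVK, measured 23.7, 26.4, 26.5 and 23.1 CPM, and the DMSO and CBL0137 libraries overlapped (-0.01 ± 0.09, edgeR adjusted p 0.924). GGPS1, which extends farnesyl to geranylgeranyl pyrophosphate on the branch towards prenylated proteins, measured 6.08, 7.11, 6.52 and 7.64 CPM and also overlapped (0.11 ± 0.15, 0.626). Its counts were 139, 160, 137 and 177, and its standard error was the largest of the 31 genes. Thus 5 of 8 mevalonate genes fell and 6 of 8 were lower at an adjusted p under 0.05, with a median log2 fold change of -0.60.

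edgeR, DESeq2 and limma-voom called 0 of the 3 squalene genes, although FDFT1 and SQLE were lower at an adjusted and at an unadjusted p under 0.05. FDFT1, the squalene synthase that commits farnesyl pyrophosphate to sterols, measured 285, 286, 202 and 201 CPM. The replicates nearly coincided, and its log2 fold change was -0.50 ± 0.04 with an edgeR adjusted p of 5.1e-11. SQLE, the squalene epoxidase and a slow step of the pathway, measured 198, 196, 149.5 and 144 CPM (-0.43 ± 0.04, 5.3e-09). LSS, which closes the rings to give lanosterol, measured 239, 227, 238 and 244 CPM. DMSO replicate 1 and CBL0137 replicate 1 were nearly equal there, and the log2 fold change was 0.05 ± 0.04 with an edgeR adjusted p of 0.346.

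After lanosterol, MSMO1, HSD17B7 and ERG28 fell, which with NSDHL serve the removal of the methyl groups at carbon C4, a grouping by known role within the 10 genes. MSMO1, the methylsterol oxidase (ENSG00000052802, chromosome 4, 166248819 to 166264316), measured 142, 143, 88.5 and 82.4 CPM, a log2 fold change of -0.74 ± 0.05 with an edgeR adjusted p of 4.1e-12. HSD17B7, the ketoreductase, measured 40.05, 41.8, 27.6 and 25.1 CPM (-0.64 ± 0.07, 1.2e-07), and ERG28, thought to hold these enzymes together, measured 54.9, 57.02, 37.1 and 36.6 CPM (-0.60 ± 0.06, 2.0e-08). NSDHL, the dehydrogenase between them, measured 39.6, 37.4, 34.5 and 32.7 CPM. All 4 genes had both CBL0137 libraries below both DMSO libraries, but NSDHL, at -0.20 ± 0.07 with an edgeR adjusted p of 0.0266, had the smallest change of the 4 and was not called.

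The enzymes that reshape the sterol rings were lower without being called, except for TM7SF2. CYP51A1, the lanosterol demethylase, had only 218, 182, 118 and 143 counts, or 9.54, 8.08, 5.62 and 6.17 CPM (-0.58 ± 0.15, edgeR adjusted p 0.00289). EBP, the sterol isomerase, measured 13.96, 12.97, 10.2 and 10.2 CPM (-0.40 ± 0.11, 0.00694), and SC5D, the desaturase, measured 100, 102, 76.7 and 76.8 CPM (-0.39 ± 0.05, 3.9e-07). DHCR7, which makes cholesterol from its last precursor in the Kandutsch-Russell branch, measured 246, 226, 158 and 158 CPM. Its log2 fold change of -0.58 ± 0.04, with an edgeR adjusted p of 5.2e-11, was just short of the fold limit, and the DMSO libraries differed more from each other than the CBL0137 libraries did.

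TM7SF2 and LBR, which reduce the same ring double bond, gave values of opposite sign. TM7SF2 measured 23.7, 25.8, 29.1 and 29.4 CPM, with both CBL0137 libraries above both DMSO libraries, and gave 0.24 ± 0.08 on the log2 scale (edgeR adjusted p 0.0173). LBR, which is also the lamin B receptor of the inner nuclear membrane, measured 184, 184, 153 and 151 CPM (-0.27 ± 0.04, 5.5e-06). Neither passed the fold limit, and the difference between the genes was not tested. Of the 10 genes after lanosterol, 3 fell, 9 were lower and 1 was higher at an adjusted p under 0.05, and the median log2 fold change was -0.49.

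**Figure D3:**
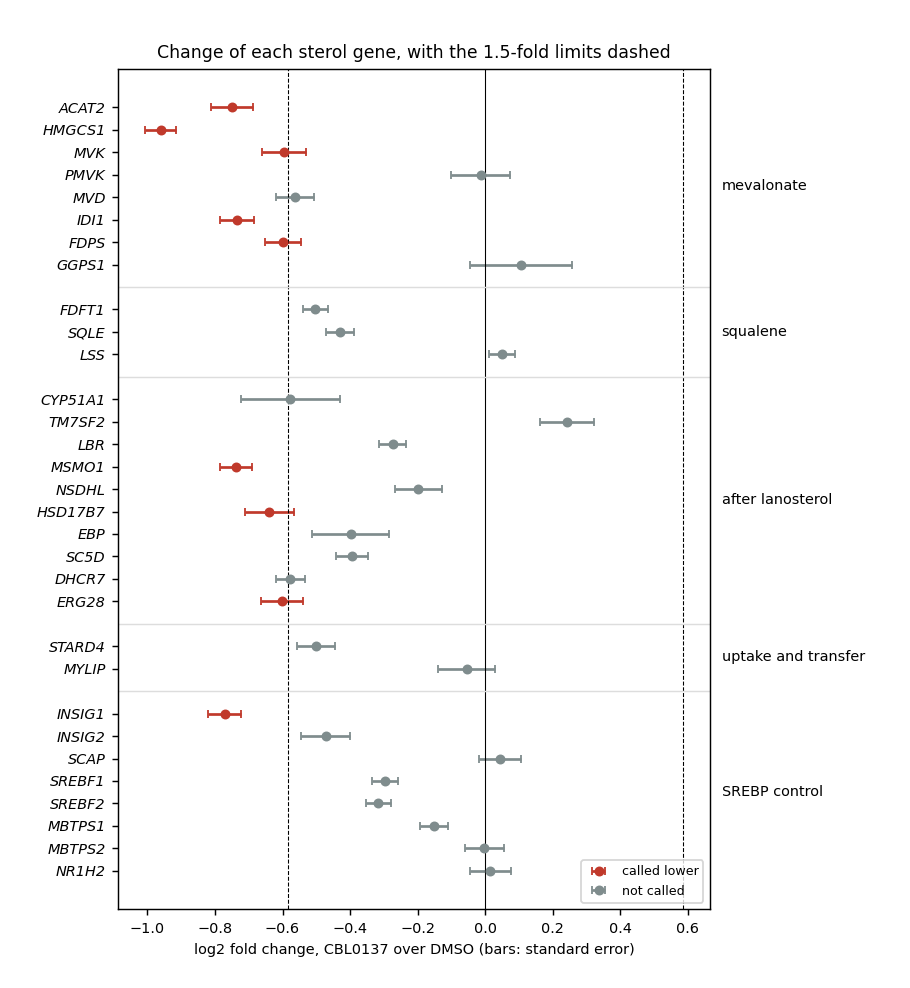
Log2 fold change of each sterol gene, CBL0137 over DMSO (x axis), with bars of 1 standard error from edgeR, red for the 9 genes called lower and grey for the 22 not called, and dashed lines at the 1.5-fold limits. HMGCS1 lies farthest left at -0.96, and TM7SF2 is the point farthest right at 0.24.

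The same 3 tools called 0 of the 2 genes of sterol uptake and transfer. In edgeR, 1 of them was lower at an adjusted and at an unadjusted p under 0.05. STARD4, a soluble protein that carries sterol between membranes, measured 74.3, 79.1, 54.95 and 53.5 CPM. Both CBL0137 libraries lay below both DMSO libraries, and the log2 fold change was -0.50 ± 0.06 with an edgeR adjusted p of 7.7e-08. MYLIP, a ubiquitin ligase induced by LXR that marks lipoprotein receptors for degradation, measured 22.9, 23.6, 23.1 and 21.7 CPM and overlapped between conditions (-0.06 ± 0.08, 0.653).

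Among the SREBP control genes, only INSIG1 fell. INSIG1 (ENSG00000186480, chromosome 7, 155089486 to 155101945), which retains SCAP in the endoplasmic reticulum and is itself a target of SREBP, measured 110.5, 109.5, 64.1 and 64.8 CPM. The replicates of each condition were nearly equal, and its log2 fold change was -0.77 ± 0.05 with an edgeR adjusted p of 3.9e-12. INSIG2, its paralogue, measured 37.03, 38.1, 26.7 and 27.4 CPM, and at -0.47 ± 0.07 with an edgeR adjusted p of 8.5e-06 it was lower but inside the fold limit. SCAP, the escort protein, measured 71.2, 63.6, 65.7 and 73.1 CPM and overlapped between conditions (0.04 ± 0.06, 0.62).

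Both SREBP genes were lower and inside the fold limit. SREBF2, whose product mainly drives sterol genes, measured 414, 428, 328 and 348 CPM (-0.32 ± 0.04, edgeR adjusted p 1.5e-07). SREBF1, whose product mainly drives fatty acid genes, measured 256, 254, 201 and 214 CPM (-0.30 ± 0.04, 1.2e-06). In both genes the CBL0137 libraries lay below both DMSO libraries and differed more from each other than the DMSO libraries did. The counts do not separate the isoforms of SREBF1.

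The proteases and the LXR receptor gene gave small values. MBTPS1, which makes the first cut in SREBP, measured 169.9, 169, 149 and 156 CPM (-0.15 ± 0.04, edgeR adjusted p 0.00575), with no overlap between conditions. MBTPS2, which makes the next cut within the membrane, measured 54.4, 51.9, 53.05 and 53.1 CPM and overlapped (-0.0023 ± 0.06, 0.982). NR1H2, the widely expressed LXR beta, measured 63.1, 63.5, 59.3 and 68.4 CPM, and the DMSO libraries lay between the CBL0137 libraries (0.02 ± 0.06, 0.875). Over the 8 control genes, 1 fell, 5 were lower at an adjusted p under 0.05 and the median log2 fold change was -0.22, against -0.56 for the 21 enzymes, of which 8 fell and 17 were lower. The difference between these groups of genes was not tested.

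Levels between genes were compared per length with the FPKM, which scale by gene length and library depth, that the authors deposited. In DMSO the order ran from FDPS at 119 ± 13.1 FPKM (mean ± SD, n = 2), FDFT1 at 93.9 ± 0.575, DHCR7 at 61.01 ± 3.45 and SREBF2 at 59.98 ± 2.79 down to INSIG2 at 6.02 ± 0.222, SCAP at 5.88 ± 1.86 and MYLIP at 4.92 ± 0.0511. The libraries of 16 of the 30 neighbouring pairs in this order overlapped, among them DHCR7 with SREBF2 and INSIG2 with SCAP, so those neighbours do not differ beyond their spread. The ends of the order depend on the deposited FPKM: by CPM per kilobase of annotated exon, FDFT1 came first at 56.2, FDPS stood at position 12 with 24.55, and GGPS1 came last at 1.73. Between these ends lay, among others, SQLE at 43.3 ± 0.898, MSMO1 at 41.05 ± 0.901, IDI1 at 40.9 ± 0.268, HMGCS1 at 29.4 ± 5.03, INSIG1 at 25.5 ± 0.174 and ACAT2 at 23.5 ± 0.674. In CBL0137 these 6 genes stood at 34.2 ± 1.16, 26.1 ± 1.23, 25.4 ± 0.0254, 17.7 ± 1.39, 15.5 ± 0.0625 and 14.7 ± 0.364 FPKM in the same order. The FPKM summed over the 31 genes was 933 and 888 in the DMSO libraries and 719.8 and 709.9 in the CBL0137 libraries. The change of the mean summed FPKM from DMSO to CBL0137 was -27.4% for the mevalonate steps, -16.4% for the squalene steps, -23.9% after lanosterol, -18.2% for uptake and -13.9% for SREBP control.

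**Figure D4:**
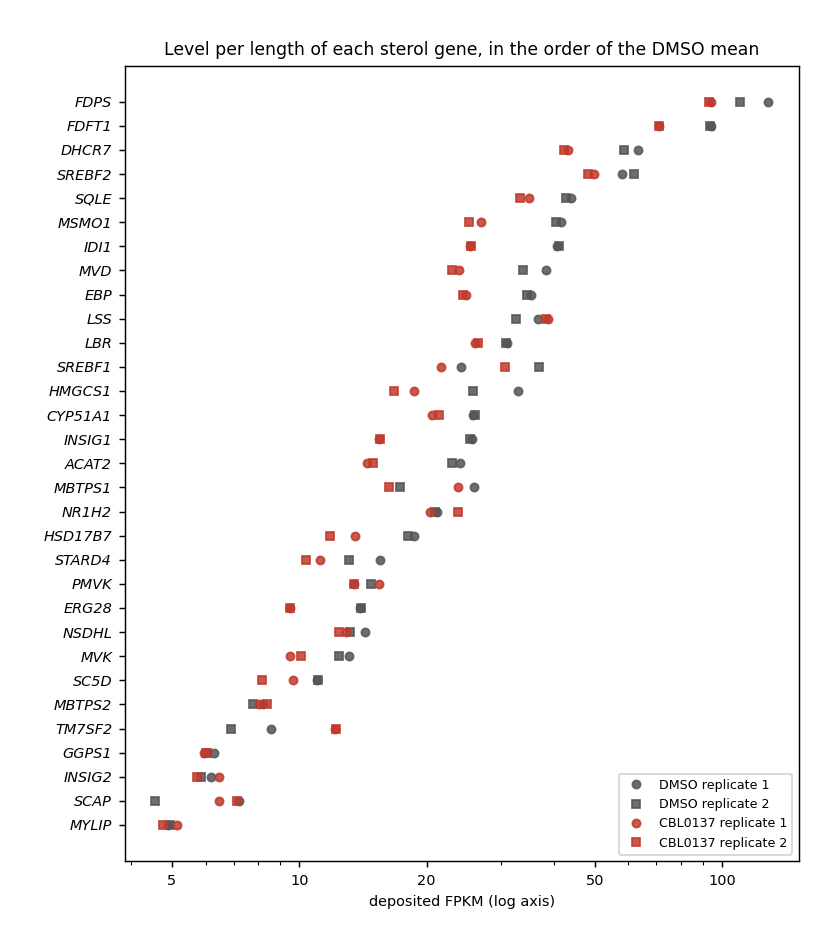
Deposited FPKM of each sterol gene in the 4 libraries (x axis, logarithmic), in the order of the DMSO mean, with grey points for DMSO and red points for CBL0137. By FPKM, FDPS is the highest gene in both conditions and MYLIP the lowest, and LSS moves from position 10 in DMSO to position 5 in CBL0137.

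FPKM and counts placed the libraries alike for 26 of the 31 genes. By FPKM the conditions overlapped for SREBF1, MBTPS1 and INSIG2, which were lower by counts, while LSS was higher (36.6, 32.6, 38.9 and 38.4) and GGPS1 lower (6.29, 6.06, 5.94 and 6.01) with no overlap. On the scale of log2(FPKM + 1), MVK stood at -0.35, FDPS at -0.34, and CYP51A1 at -0.29, each nearer to 0 than by counts. INSIG2 was lower by counts, yet its FPKM of 6.18, 5.86, 6.47 and 5.72 overlapped, a difference of 0.01 on that scale. For TM7SF2 the FPKM of 8.59, 6.90, 12.2 and 12.2 gave 0.60 against 0.24 from counts, and limma-trend called it higher on that scale. The FPKM of CYP51A1 was 25.7, 26.04, 20.6 and 21.4, which is 12.25 times its CPM per kilobase of annotated exon in DMSO, against a median ratio of 1.1 over the 31 genes. The exons of CYP51A1 share 68.2% of their bases with those of another gene model on the same strand, where HTSeq can leave reads unassigned as ambiguous, and such reads made up 9.19% to 9.5% of the reads in the table per library. The ratio was 4.86 for FDPS, 4.59 for EBP and 3.57 for GGPS1. EBP and GGPS1 share 36.4% and 37.3% of their exon bases with a gene model on the same strand. HMGCS1 had a ratio of 1.34 and shares 37.7% of its exon bases with a gene on the opposite strand. That gene had a count of 0 in each library. The part of shared exons in these ratios was not tested.

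Other genes share sequence with members and could take or lend reads. TCP1, a chaperonin subunit whose exons overlap 17.2% of the ACAT2 exons on the opposite strand, measured 451, 451, 355 and 340.2 CPM (-0.37 ± 0.03, edgeR adjusted p 3.9e-09). The pseudogene HSD17B7P2, a near copy of HSD17B7, had 95, 99, 85 and 55 counts against 915, 942, 579 and 581 for HSD17B7. Reads that fit both genes were not measured, so how far they affect the values of HSD17B7 is not known. RUSC1-AS1, which overlaps 18.6% of the FDPS exons on the opposite strand, measured 10.99, 10.5, 7.86 and 7.12 CPM (-0.52 ± 0.13, 0.0025). No source used here says whether the libraries kept strand.

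The calls differed in how they held under other processing. HMGCS1, ACAT2, IDI1, MSMO1 and INSIG1 remained called under each of 13 alternatives that kept the 1.5-fold limit, which changed the scaling, filter, test, unit, pairing or libraries. MVK lost its call under 6 of them, FDPS and ERG28 under 4 each and HSD17B7 under 3. Without CBL0137 replicate 2, FDPS stood at -0.55 and HSD17B7 at -0.57, without DMSO replicate 2 ERG28 stood at -0.58, and without DMSO replicate 1 or CBL0137 replicate 1 MVK stood at -0.58 and -0.55. In the other direction, MVD, CYP51A1 and DHCR7 passed the limits without DMSO replicate 2, at -0.64, -0.70 and -0.64, and CYP51A1 also without CBL0137 replicate 2 (-0.65). Nearest to the fold limit among called genes were MVK, FDPS and ERG28 at -0.60, -0.60 and -0.60, and nearest among those not called were CYP51A1, DHCR7 and MVD at -0.58, -0.58 and -0.56, less than their standard errors apart.

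**Figure D5:**
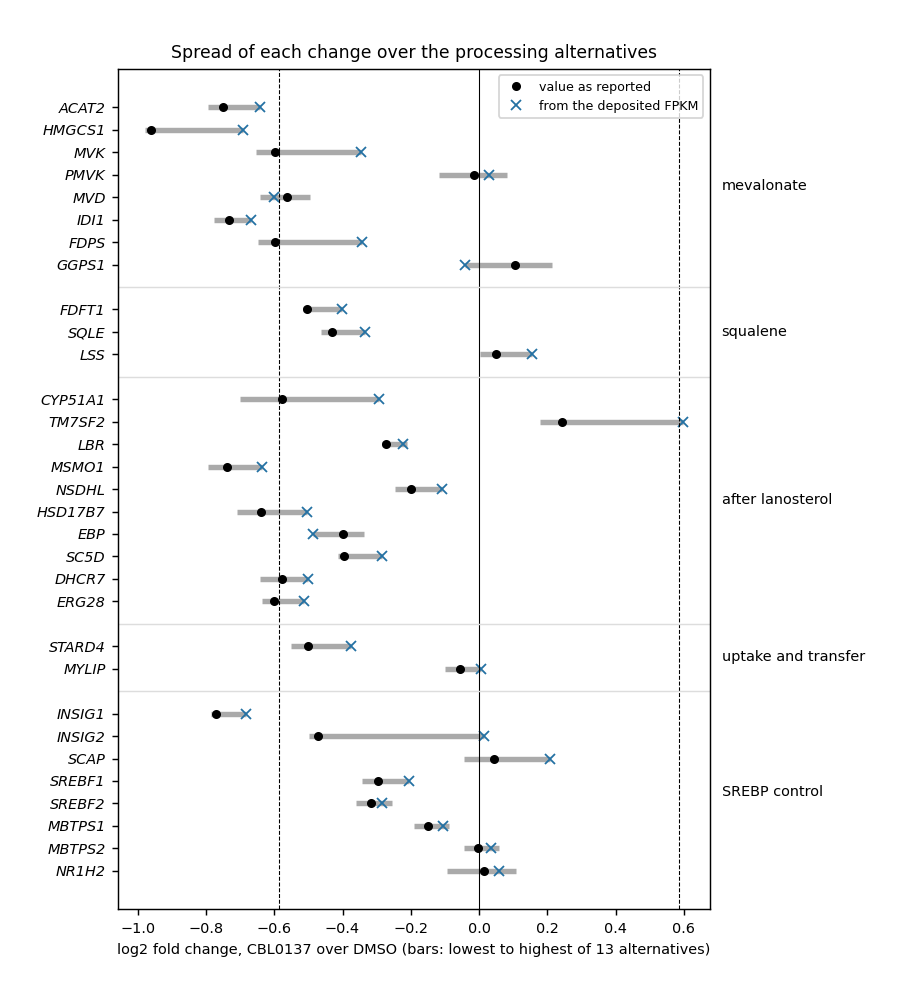
Log2 fold change of each sterol gene as reported (black points), its lowest to highest value over 13 processing alternatives (grey bars) and its value from the deposited FPKM (blue crosses), with dashed lines at the 1.5-fold limits. HMGCS1, ACAT2, IDI1, MSMO1 and INSIG1 stay left of the limit throughout, and the crosses of INSIG2 and TM7SF2 lie farthest from their points among the control genes and the enzymes after lanosterol.

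Other genes of sterol and lipid handling were read from 6 lists, which were not tested against all genes. Of all 17309 genes tested, the limits called 2.73% lower and 6.88% higher, and an edgeR adjusted p under 0.05 alone gave 19% and 17.5%. The share of all genes at an unadjusted p under 0.05 was not computed, so counts at an unadjusted p have no such share beside them. Of 13 fatty acid genes that SREBP1 can activate, 2 fell, 0 rose and 11 were not called, while 11 were lower and 0 higher at an adjusted p under 0.05, with 11 and 0 also at an unadjusted p and a median log2 fold change of -0.24. FASN, the fatty acid synthase, measured 1407, 1351, 734 and 769 CPM (-0.88 ± 0.03, edgeR adjusted p 2.3e-16), and ACSS2, which makes acetyl-CoA from acetate, measured 54.8, 54.2, 36.3 and 32.04 CPM (-0.67 ± 0.07, 1.2e-08). The desaturases FADS2 (-0.50 ± 0.03) and SCD (-0.36 ± 0.03) were lower and inside the fold limit. DESeq2 and limma-voom also called 2 of these genes lower and 0 higher, and on the FPKM scale the call of ACSS2 was lost (-0.66).

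The next list holds LXR receptors, their partners and targets, and sterol pumps. Of these 10 LXR and efflux genes, 2 rose, 0 fell and 8 were not called, with 6 higher and 1 lower at an adjusted and at an unadjusted p under 0.05, and a median log2 fold change of 0.27. ABCA1, a pump that loads sterol onto lipoproteins, measured 5.21, 5.42, 9.24 and 10.5 CPM (0.90 ± 0.14, edgeR adjusted p 1.8e-05). ABCG4, another sterol pump, measured 0.788, 1.69, 2.67 and 2.42 CPM (1.04 ± 0.31, 0.0109), but it was not called by DESeq2, and without DMSO replicate 1 its call was lost (0.58). SMPDL3A, an LXR target, stood at 0.55 ± 0.09 and the LXR partner RXRA at 0.26 ± 0.05, both inside the fold limit. Of 6 oxysterol enzymes, CYP46A1, a cholesterol hydroxylase, rose from 1.44 and 1.11 CPM to 2.76 and 3.11 CPM (1.20 ± 0.28, edgeR adjusted p 0.0012), 0 fell and 5 were not called. Of these enzymes, 2 were higher and 0 lower at an adjusted and at an unadjusted p under 0.05. CYP7B1 stood at 0.25 ± 0.09, CYP27A1 at -0.41 ± 0.26 and HSD3B7 at -0.45 ± 0.38. DESeq2 and limma-voom called 0 lower genes in both lists.

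The remaining lists held 1 call. Of 17 genes of sterol transport and storage, LRP8, a lipoprotein receptor, fell from 23.2 and 23.9 CPM to 12.2 and 11.7 CPM (-0.98 ± 0.10, edgeR adjusted p 9.4e-09), 0 rose and 16 were not called, and the median log2 fold change was 0.01. LRP1 (0.24 ± 0.04), OSBP (-0.19 ± 0.05) and NPC2 (-0.19 ± 0.06) followed, inside the fold limit. DESeq2 and limma-voom also called 0 higher there. At an edgeR adjusted p under 0.05, 3 were lower and 1 higher, against 19% and 17.5% of all genes tested. An unadjusted p under 0.05 gave 3 and 2. Of 13 genes of the isoprenoid branches and of protein prenylation, edgeR, DESeq2 and limma-voom called 0. There, 5 were lower and 0 higher at an edgeR adjusted p under 0.05, and 5 and 1 at an unadjusted p. Among those lower were the prenyl protein processing enzymes ICMT (-0.30 ± 0.04) and RCE1 (-0.39 ± 0.07) and the transferase subunits PDSS2 (-0.28 ± 0.09) and RABGGTB (-0.18 ± 0.06). Of 13 genes that degrade or assist the SREBP machinery, the 3 tools again called 0. In edgeR, 6 were lower and 2 higher at an adjusted and at an unadjusted p under 0.05. VCP, the segregase of endoplasmic reticulum degradation, measured 971, 945, 642 and 679 CPM (-0.54 ± 0.03, edgeR adjusted p 2.6e-12), followed by ERLIN1 (-0.30 ± 0.04), NPLOC4 (-0.24 ± 0.04) and TMEM97 (-0.32 ± 0.06).

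Library depth over genes was 20483714 to 23373554 counts, and mitochondrially encoded genes took 5.82% to 5.92% of them. All 8 Ewing sarcoma markers were expressed, with CD99 at 1592, 1589, 1584 and 1562 CPM, and their log2 fold changes lay between -0.23 and 0.29. Of 5 liver markers and of 4 epithelial markers, 0 passed the count filter, and of 4 blood markers 2 did. The summed FPKM of each of these 3 lists was at most 0.479 in any library, and APOB, TTR, GRHL2, CD3E and the steroid-making enzyme HSD3B2 had a count of 0 in each library. STAR, which moves cholesterol into mitochondria, measured 4.16, 4.35, 10 and 9.11 CPM (1.17 ± 0.15, edgeR adjusted p 8.7e-07), while the other 3 steroid-making markers had at most 6 counts in a library. The summed FPKM of those 4 markers was 1.79 and 2.04 in DMSO and 4.93 and 4.58 in CBL0137.

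Of 5 fibroblast and endothelial markers, 4 were matched, 3 passed the filter and all 3 rose. PDGFRB measured 106, 97.4, 156 and 166 CPM (0.66 ± 0.05, edgeR adjusted p 3.5e-11), and DCN had 48, 42, 61 and 84 counts and CDH5 4, 3, 19 and 17 counts. The summed FPKM of this list was 13.4 and 12.1 in DMSO and 21.35 and 22.3 in CBL0137, and LUM had at most 9 counts in a library. The part of these genes in the changes of the sterol genes was not tested.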

How the data were processed

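RNA-seq libraries from A673 cells were read from 1 deposited table. The reads were trimmed with Trim Galore, aligned with HISAT2 to hg19 and counted per gene with HTSeq 0.11.1, and the authors used DESeq2 1.26.0, per the submitters' processing notes; mm10 is also listed there without a role. The deposited counts were used as given, without the 6 rows that name no gene, which held 23.7% to 24.8% of reads. The deposited FPKM were made by the authors with a tool not given in the sources used here; 4663 genes had an FPKM above 0 with a count of 0 in all libraries, so they do not follow from the counts alone. The annotation release, strand setting and poly(A) selection are not given in the sources used here.

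Gene IDs were named from GENCODE 44 lifted to GRCh37, which named 58524 of 60617, and GRCh37 positions come from it. Counts were tested with edgeR 4.0.16 (R 4.3.3; TMM factors, filterByExpr with a minimum count of 10, glmQLFit and glmQLFTest) across all 17309 genes that passed, with Benjamini-Hochberg adjustment over all of them. Calls used the limits of the series' text, 0.05 for the adjusted p and 1.5 for the fold. SE is the log2 fold change divided by the root of F. DESeq2 1.42.0, limma 3.58.1 (voom on counts, trend on log2(FPKM + 1) with FPKM of at least 1 in 2 libraries), other scalings, filters and fold limits, a replicate block and each library left out were alternatives. The edgeR fit was also run on counts simulated from its own fitted spread, which cannot show whether that spread suits these libraries. Promoter windows came from RefSeq (GRCh38.p14), and motifs and figures were made with Python 3.11.15.

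The genes and lists were chosen with earlier results of these data known. All of the sterol genes, and of each other list the called genes and up to 4 with the smallest adjusted p, are named, except for some genes that these rules take and that are not reported here. Counts were lowest for GGPS1, CYP51A1 and EBP, which had the largest standard errors of the sterol genes. These genes share 37.3%, 68.2% and 36.4% of their exon bases with a gene model on the same strand. The part of library depth and of shared exons in their low counts was not tested.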

Additional observations from a re-analysis of the deposited data

How the results depend on the processing

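Over 13 alternatives, 359 of 403 values of the 31 sterol genes kept their direction and their side of the limits, 17 lost a call, 8 gained one and 19 changed sign. The 9 genes called lower became 5 with scaling by library size alone, 23 with an adjusted p alone and 0 with a fold limit of 2, and the 0 called higher became 1 (TM7SF2) on FPKM with limma-trend and 1 with an adjusted p alone. Among the mevalonate genes the 5 calls became 3 with upper-quartile factors, 3 with library size and 0 with the fold limit of 2. After lanosterol the 3 calls became 1 with library size, 5 without a count filter, 1 on FPKM, 9 with an adjusted p alone and 0 with the fold limit of 2, and 1 was higher on FPKM and 1 with an adjusted p alone. With an adjusted p alone, 2 squalene genes, 1 uptake gene and 5 control genes were lower, and the fold limit of 2 left 0 control genes. Dropping the count filter also moved the scaling and the fitted spread, for example DHCR7 from -0.58 to -0.59. The causes of the shifts under other scalings, filters and FPKM were not tested.

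Leaving out 1 library at a time gave 8 to 11 genes called lower, 4 to 6 of the mevalonate steps, 3 to 4 after lanosterol, 1 to 1 of SREBP control, and 0 to 0 of the squalene and uptake genes and for genes called higher. The lone library of the smaller group is then assumed to vary like the others. Sign changes were seen only in genes near 0 and in INSIG2 and RCE1 on FPKM. PMVK gave 0.035 with upper-quartile factors, 0.048 with library size, 0.030 on FPKM and -0.12 to 0.082 with a library left out. GGPS1 gave -0.041 on FPKM and -0.017 to 0.21 with a library left out. MYLIP gave 0.00661 with library size and 0.00709 on FPKM, and on FPKM INSIG2 gave 0.014 and RCE1 0.025. With a library left out, SCAP ranged from -0.043 to 0.12 and NR1H2 from -0.095 to 0.11. MBTPS2 gave 0.046 with upper-quartile factors, 0.059 with library size, 0.00976 with the filter of 1 CPM, 0.036 on FPKM and -0.045 to 0.027 with a library left out.

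Over all genes, DESeq2 called 326 lower and 593 higher of 15097 with an adjusted p, and limma-trend on FPKM 189 and 388 of 14139, against 472 and 1191 of 17309 with edgeR. An adjusted p alone gave 3292 and 3022, and a fold limit of 2 gave 131 and 605. Libraries of the same replicate number showed no shared shift: deviations of replicate 1 from the group means correlated at -0.10 over 9915 genes. This correlation cannot show whether such libraries were prepared together. With the replicate number as a block, 9 sterol genes were again called lower, and 448 genes lower and 1128 higher over all. A crossed pairing, chosen after seeing the data, called 9 sterol genes lower, and 482 genes lower and 1222 higher over all. With 2 libraries a condition, 1 cell line and the low counts of GGPS1, CYP51A1 and EBP, small changes in these genes were not measured precisely.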
